A study of Homo sapiens with 21 samples.

Results

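The genes described here were read in StAMP-resistant leukaemia cells but scarcely, or not at all, in either parental cell line of the series. They were chosen on the first sequencing batch with a rule on expression level. Levels are given in CPM, the count of a gene divided by the total of its library and scaled to a library of 1000000 counts, and means were taken over the 3 libraries of a group. A gene was a member when its mean was at least 2 CPM in the resistant libraries and below 0.5 CPM in each of the 3 other groups of that batch. The rule took 18 of the 28008 genes in the tables. Batch 1 therefore chose the members, and its values are a description with no test. The rule read no value of the 9 libraries of batch 2, although it was set with earlier results from both batches known.

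Messenger RNA was measured in 21 libraries in 7 groups of 3, from OCI-AML3 (acute myeloid leukaemia) and K562 (chronic myeloid leukaemia in blast crisis, with erythroid features). Batch 1 held parental OCI-AML3, OCI-AML3 with DMSO ("vehicle"), OCI-AML3 labelled resistant to StAMP, biological replicate 1 ("resistant 1"), and parental K562. Batch 2 held vehicle, resistant 1 and a second biological replicate of resistant cells ("resistant 2"). The parental and vehicle groups carry the genotype label WT and the resistant cells, labelled as treated with StAMP, the label Res. The labels do not spell out StAMP, the series title speaks of stapled oncolytic peptides, and dose, duration, selection and clonality were not given in the sources used here. Nothing states that the 3 libraries of a group came from separate cultures, and the spread behind each p-value may be technical.

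Leukaemia lines in culture express, beside their own lineage programme, low levels of genes that belong to other tissues. The cancer-testis genes, which are silenced by DNA methylation outside the germ line, are the textbook case. Among the 18 members are brain enzymes, a liver gluconeogenic enzyme, lymphocyte receptors, a fetal chromatin protein and a cancer-testis transcript. None is in the marker lists of erythroid, megakaryocytic, monocytic or neutrophil cells used for this series.

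The identity of the resistant libraries bears on every value below. The libraries labelled resistant 1 in batch 1 correlated with K562 at 0.978 to 0.980 (Pearson, log2 of CPM plus 1 over 10781 genes) and with vehicle of the same batch at 0.506 to 0.510. In batch 2 the resistant 1 and resistant 2 libraries correlated with K562 of batch 1 at 0.900 to 0.940 and with vehicle of their own batch at 0.555 to 0.581. Summed over 19 erythroid markers, resistant 1 of batch 1 held 6698 to 7014 CPM, K562 6511 to 6626 CPM and OCI-AML3 parental 280 to 323 CPM. In batch 2 the sum was lower than in K562, at 2361 to 2979 CPM in resistant 1 and 1615 to 2651 CPM in resistant 2. Vehicle of batch 2 held 87.45 to 135.4 CPM. The expression profile of the libraries labelled resistant OCI-AML3 thus went against that label and lay nearer to K562 than to OCI-AML3. A change from vehicle therefore compares unlike profiles, and K562 is the second reference throughout. Totals ran per library from 14.1 to 21.1 mega counts in batch 1 and from 30.7 to 51.3 mega counts in batch 2.

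The set was small beside the sets that follow cell identity. With K562 free to take any level, 818 genes were at least 2 CPM in resistant 1 and below 0.5 CPM in both OCI-AML3 groups of batch 1, and 646 of them were at least 2 CPM in K562 as well. The same rule with K562 as the high group found 5 genes, with OCI-AML3 parental 4 genes and with vehicle 17 genes, so the number found in resistant 1 was close to that in vehicle. The mirror image, at least 2 CPM in the 3 other groups and below 0.5 CPM in resistant 1, held 3 genes. In K562 the members averaged 0.0404 to 0.480 CPM with a median of 0.320, and 0 of 18 had 0 counts in all 3 K562 libraries. The K562 mean was above both OCI-AML3 means of batch 1 in 16 of 18, the exceptions being LMO3 and PLXNC1. In the 6 OCI-AML3 libraries of batch 1, 6 members had 0 counts throughout (ALDH1L1, ADGRG1, SULT4A1, CCR7, PCK1 and COX7B2), where 3 counts over a group correspond to 0.0632 CPM in parental and 0.0548 CPM in vehicle.

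Most members lay near the threshold. The mean in resistant 1 of batch 1 was below 3 CPM in 10 of 18, and the median was 2.59 CPM. Just inside the lower limit were ZNF732 at 2.06, PNCK at 2.15 and PDE2A at 2.26 CPM. Just outside were INHA, the inhibin alpha subunit, with libraries at 1.79, 2.44 and 1.64 CPM, LOC100507065 with 2.24, 1.98 and 1.49 CPM, and CRYBA4, a lens crystallin, with 1.69, 1.81 and 2.20 CPM. Of the genes that failed narrowly, LOC100507065 averaged 4.97 CPM in resistant 1 and 18.5 CPM in resistant 2 of batch 2. Just inside the 0.5 CPM ceiling were PDE2A (0.480 CPM in K562), PLXNC1 (0.455 CPM in vehicle) and PTGDS (0.416 CPM in K562). Just outside it were ESAM, an endothelial adhesion molecule (0.687, 0.429 and 0.420 CPM in K562), LINC01623 (0.481, 0.490 and 0.578 CPM) and SPRY1, a growth factor signalling inhibitor (0.412, 0.368 and 0.788 CPM).

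**Figure D1:**
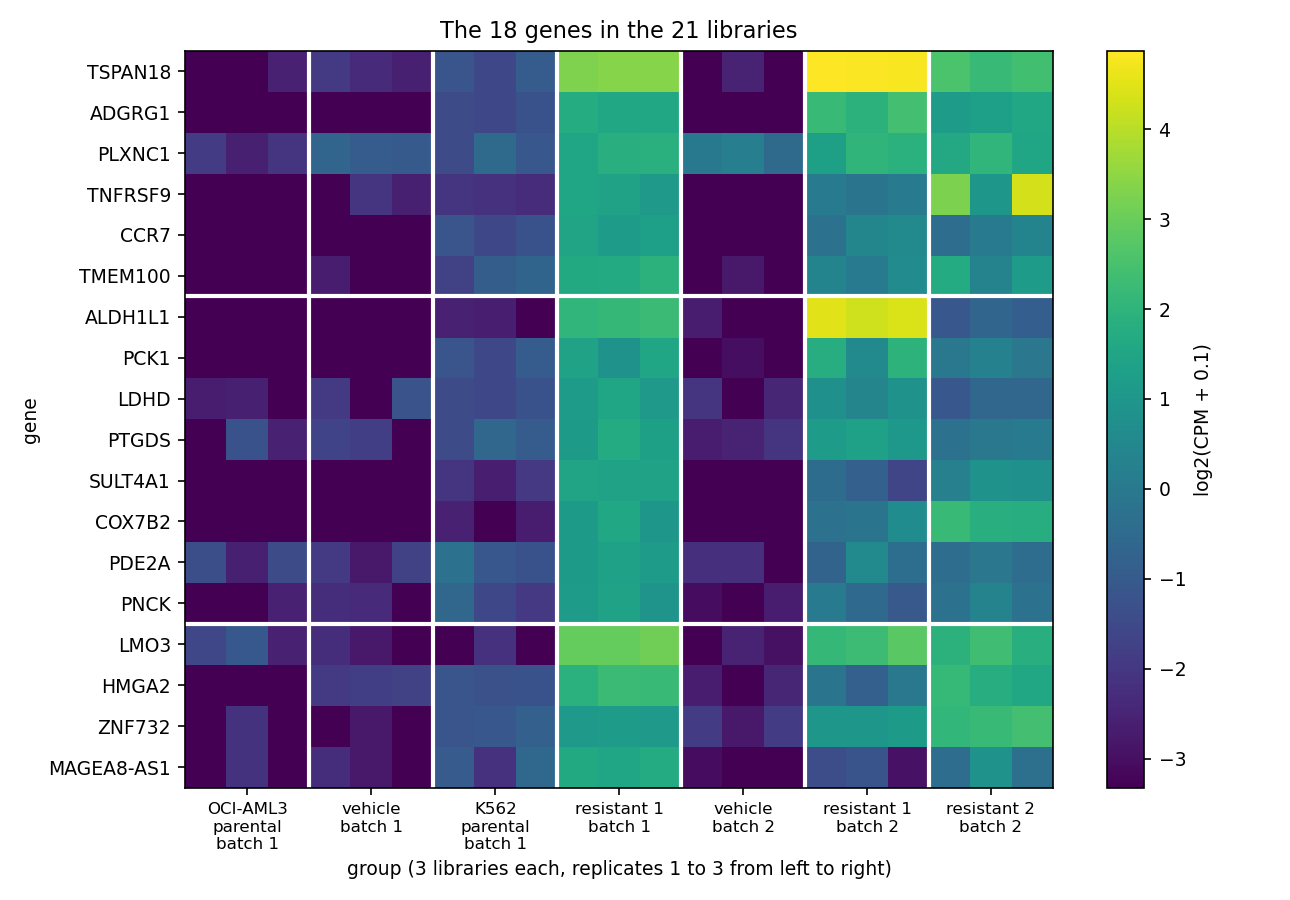
The 18 genes (rows, grouped from the top into membrane proteins and receptors, enzymes, and nuclear proteins with the non-coding RNA) in the 21 libraries (columns, 3 per group), coloured by log2 of CPM plus 0.1. The resistant libraries are brighter than vehicle of their own batch in every row, and TSPAN18 and ALDH1L1 are brightest in resistant 1 of batch 2.

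In batch 2 the members were read above vehicle in both resistant replicates. In bulk RNA, more cells that express a gene and more RNA per cell cannot be told apart. The low-count filter of the edgeR fit, which asks for 0.237 CPM in 3 libraries and left 15218 genes, bears on this comparison. PLXNC1 was the single member with vehicle libraries at that level, and the other 17 passed through the resistant libraries alone and so had to differ from vehicle. No count or median of the filtered fit over the set is therefore given against vehicle. Without the filter, all 21213 genes with a count in batch 2 were tested with edgeR's quasi-likelihood test and Benjamini-Hochberg adjustment. There 17 of 18 were higher in resistant 1, beside 31.8% of those genes, with TNFRSF9 the exception, and 18 of 18 were higher in resistant 2, beside 32.2%. Both comparisons use the same 3 vehicle libraries. Every resistant library lay above every vehicle library in 18 of 18 genes for each replicate, beside 38.1% and 40.4% of the genes with a count. The rule had chosen the members in batch 1 as high in resistant 1 and low in vehicle. These shares are over genes not so chosen and are no measure of what such a choice would give. The values of single genes below come from the filtered fit, in which 39.9% and 40.2% of all genes were higher than vehicle in resistant 1 and resistant 2, and 35.8% and 35.9% lower. For every member but PLXNC1, an adjusted p against vehicle from that fit carries the limit of the filter given above.

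Presence above vehicle was general, but the level the rule had asked for was not. With the thresholds of the rule applied to batch 2 (mean at least 2 CPM in the resistant group and below 0.5 CPM in vehicle), 6 of 18 genes met them in resistant 1: TSPAN18, LMO3, ALDH1L1, ADGRG1, PTGDS and PCK1. Of all genes, 3.41% met them, and of the 13276 genes that were below 0.5 CPM in the 3 other groups of batch 1, 0.392% did. In resistant 2, 8 of 18 met them: TSPAN18, LMO3, HMGA2, TMEM100, ADGRG1, TNFRSF9, COX7B2 and ZNF732, beside 3.67% of all genes and 0.648% of those low in the 3 groups. These shares, too, are over genes not chosen as high in resistant 1 of batch 1. Both lists held TSPAN18, LMO3 and ADGRG1. Neither held 7 genes: PLXNC1, MAGEA8-AS1, SULT4A1, CCR7, LDHD, PDE2A and PNCK. PLXNC1 was above 3 CPM in both and failed through its vehicle mean of 0.850 CPM. When every library had to meet the thresholds, 4 genes did so in resistant 1 (without PTGDS and PCK1) and 6 in resistant 2 (without TMEM100 and TNFRSF9).

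The resistant replicates differed from each other in 12 of the 18 genes, beside 24.4% of all genes tested. The genes tested include some not read in either resistant group, which could not be called, while every member was read in both. The 6 lower in resistant 2 were ALDH1L1, TSPAN18, LDHD, PCK1, PTGDS and ADGRG1, beside 11.9% lower of all genes. The 6 higher in resistant 2 were TNFRSF9, HMGA2, MAGEA8-AS1, COX7B2, SULT4A1 and ZNF732, beside 12.4% higher. LMO3, TMEM100, PLXNC1, CCR7, PDE2A and PNCK did not pass the test. Of the enzymes, 4 were lower (ALDH1L1, LDHD, PCK1 and PTGDS), 2 higher (COX7B2 and SULT4A1) and 2 not called. Of the 4 nuclear and non-coding genes, 3 were higher and 0 lower. The libraries of both resistant groups all reached the filter level in 16 of the 18 genes, the exceptions being MAGEA8-AS1 and SULT4A1 with 2 of 3 in resistant 1. Without the filter 11 of 18 differed, all but TNFRSF9 of those called, beside 17.3% of the genes with a count.

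**Figure D2:**
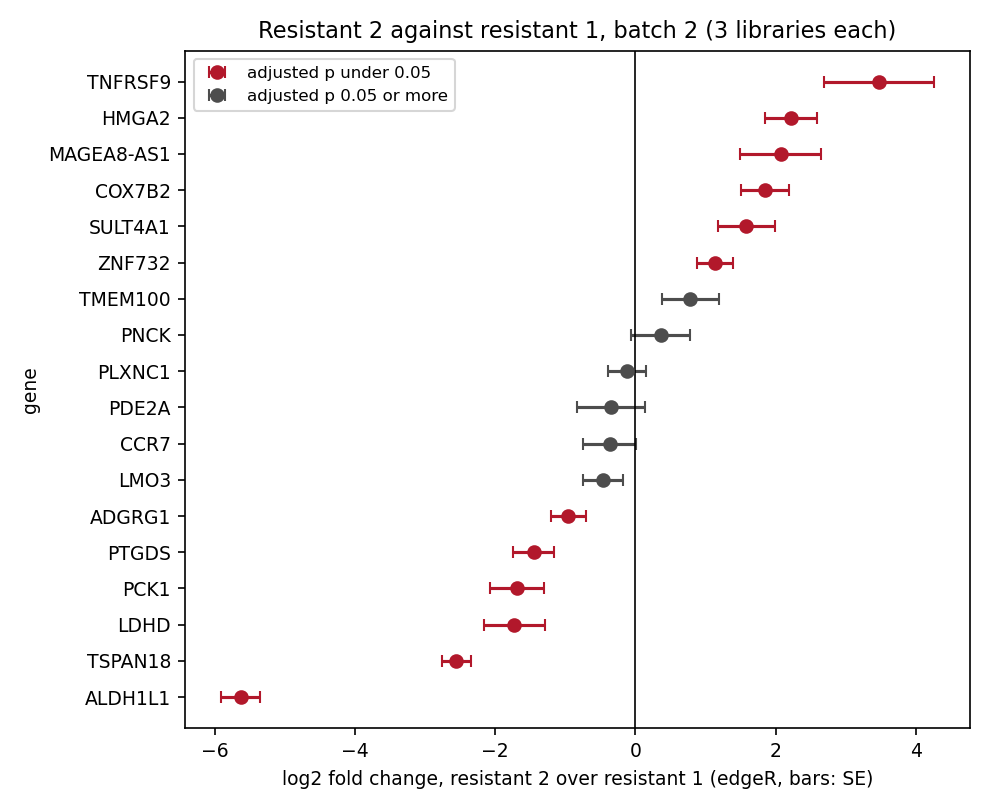
Log2 fold change of resistant 2 over resistant 1 in batch 2 for the 18 genes (points, edgeR estimates, with 3 libraries per group), red where the adjusted p was under 0.05. Bars are approximate standard errors, the absolute estimate divided by the square root of its F statistic. ALDH1L1 at -5.63 and TNFRSF9 at 3.48 stand at the ends, and 6 genes are called on each side.

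Among the membrane proteins, TSPAN18, a tetraspanin (a family of small membrane-spanning scaffold proteins), lies on chromosome 11 from 44726465 to 44932423 (hg38, plus strand). Its libraries were at 9.69, 10.4 and 10.5 CPM in resistant 1 of batch 1, beside 0.344, 0.245 and 0.420 CPM in K562. In batch 2 the libraries were at 29.2, 28.0 and 27.6 CPM in resistant 1 and at 5.72, 4.59 and 5.13 CPM in resistant 2. Vehicle held 3 counts in all, in 1 library. None of these resistant ranges overlapped another, and the replicates of each group were tight. The gene overlaps TP53I11 on the opposite strand, which averaged 3.18 CPM in resistant 1 of batch 1, 0.686 CPM in resistant 1 of batch 2 and 1.54 CPM in resistant 2. Against vehicle the count ratio was 1227 (95% counting interval 420 to 5955) in resistant 1 and 223 (75.9 to 1083) in resistant 2, and these intervals cover counting error only. On the log2 scale resistant 2 minus resistant 1 was -2.55 ± 0.20 (adjusted p = 1.12e-06). Here and for every log2 fold change below, ± gives an approximate SE. It is the absolute estimate divided by the square root of its F statistic.

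ADGRG1, an adhesion G protein-coupled receptor known from haematopoietic stem cells, brain and cytotoxic lymphocytes, lies on chromosome 16 from 57610652 to 57665580 (plus strand). It was at 3.28, 2.94 and 2.91 CPM in resistant 1 of batch 1 and at 0.275, 0.245 and 0.315 CPM in K562. The libraries of batch 2 were at 4.62, 3.74 and 5.21 CPM in resistant 1 and at 2.22, 2.39 and 2.87 CPM in resistant 2. Every OCI-AML3 parental library of batch 1 and every vehicle library of both batches had 0 counts. The gene was thus read in none of the OCI-AML3 control libraries. Resistant 1 was at least 194-fold higher than vehicle (adjusted p = 4.25e-09) and resistant 2 at least 108-fold higher (adjusted p = 2.10e-08), with the floor at 3 counts over the vehicle libraries. Resistant 2 was lower than resistant 1 without overlap, with a log2 fold change of -0.96 ± 0.25 (adjusted p = 1.47e-02). That call ended without resistant 1 replicate 1 (-0.95, adjusted p = 0.0509), resistant 1 replicate 3 (-0.83, 0.0725) or resistant 2 replicate 1 (-0.88, 0.0634).

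PLXNC1, the plexin receptor for semaphorin 7A, lies on chromosome 12 from 94148577 to 94307675 (plus strand). It had the steadiest level of the set across the resistant groups, with means of 3.23 ± 0.44, 3.36 ± 0.85 and 3.27 ± 0.71 CPM (SD, n = 3) in resistant 1 of batch 1, resistant 1 of batch 2 and resistant 2. Vehicle was not near 0, with libraries at 0.897, 1.04 and 0.609 CPM in batch 2. K562 was at 0.275, 0.613 and 0.368 CPM. The fold over vehicle was the smallest of the set, with log2 fold changes of 1.78 ± 0.30 (adjusted p = 7.56e-05) in resistant 1 and 1.65 ± 0.30 (adjusted p = 1.38e-04) in resistant 2. On the log2 scale resistant 2 minus resistant 1 was -0.12 ± 0.27 (adjusted p = 0.785), and its sign turned without resistant 1 replicate 2 (0.01). The 3′ end of the gene overlaps CEP83 on the opposite strand, which was at 40.3 CPM in resistant 1 of batch 1, 38.0 CPM in K562 and 18.2 CPM in vehicle. The kit keeps strand, but whether the counting used strand was not given in the sources used here, so reads of such pairs may be shared.

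TNFRSF9, a co-stimulatory receptor of activated T cells in the tumour necrosis factor receptor family, lies on chromosome 1 from 7915871 to 7943165 (minus strand). It was at 2.78, 2.55 and 1.99 CPM in resistant 1 of batch 1 and at 0.137, 0.123 and 0.105 CPM in K562. In batch 2 it was at 0.947, 0.780 and 0.911 CPM in resistant 1 and at 9.54, 1.91 and 20.3 CPM in resistant 2. The resistant 2 libraries differed from each other more than for any other member, with a mean of 10.6 ± 9.26 CPM (SD, n = 3), and replicate 2 was the low one. Vehicle held 0 counts. Resistant 1 was at least 38.2-fold higher than vehicle (adjusted p = 1.13e-02) and resistant 2 at least 459-fold higher (adjusted p = 3.51e-04). Resistant 2 exceeded resistant 1 without overlap by a log2 fold change of 3.48 ± 0.79 (adjusted p = 1.75e-02). With no low-count filter neither resistant 1 against vehicle (adjusted p = 0.0656) nor resistant 2 against resistant 1 (0.0951) was called, and the latter also ended without resistant 1 replicate 1 (0.0607) or replicate 2 (0.0579).

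CCR7, the chemokine receptor that guides lymphocytes and dendritic cells to lymph nodes, lies on chromosome 17 from 40553769 to 40565472 (minus strand). Its libraries were at 2.63, 2.15 and 2.35 CPM in resistant 1 of batch 1 and at 0.344, 0.245 and 0.315 CPM in K562. In batch 2 they were at 0.726, 1.25 and 1.40 CPM in resistant 1 and at 0.664, 0.917 and 1.19 CPM in resistant 2. All 9 OCI-AML3 control libraries had 0 counts, and the 2 resistant replicates of batch 2 overlapped. CCR7 was at least 46.2-fold higher than vehicle in resistant 1 (adjusted p = 2.03e-06) and at least 39.7-fold higher in resistant 2 (adjusted p = 3.92e-06). Between the resistant replicates the log2 fold change (2 over 1) was -0.37 ± 0.38 (adjusted p = 0.523).

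CCR7 was the single member found in any of the 27 cell type and pathway lists used for this series. Its list, cytokines, chemokines and their receptors, had 48 genes, of which 32 were tested in batch 2. CCR7 held 0 counts in vehicle of batch 2, so it passed the low-count filter through the resistant libraries alone. Other genes of the list could pass through 1 side alone in the same way. No count or median of the list against vehicle is therefore given. Lymphoid markers stood beside CCR7 and TNFRSF9 as follows. The 15 T and NK cell markers summed to 10.8 to 12.1 CPM in resistant 1 of batch 1, 10.6 to 12.2 CPM in K562, 7.94 to 18.1 CPM in resistant 1 of batch 2 and 4.68 to 6.64 CPM in resistant 2. Most of the counts in the resistant libraries came from CD3D, a T cell receptor subunit with 480 counts in resistant 1 of batch 1 and 491 in K562. LCK, the T cell kinase, had 0 counts in all 21 libraries, and CD8A had 0 counts in both resistant 1 groups and 2 in resistant 2. In vehicle of batch 2 the sum was 481 to 502 CPM, nearly all from CD4 and NCAM1.

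TMEM100, a small membrane protein of endothelial and sensory cells that acts downstream of bone morphogenetic protein signals, lies on chromosome 17 from 55719627 to 55732121 (minus strand). It was at 3.03, 3.11 and 3.77 CPM in resistant 1 of batch 1 and at 0.206, 0.429 and 0.525 CPM in K562. In batch 2 the libraries were at 1.19, 0.910 and 1.43 CPM in resistant 1 and at 3.16, 1.16 and 2.16 CPM in resistant 2. The resistant 2 libraries spread over a wide range and reached into that of resistant 1. Vehicle held 2 counts in all, and the count ratio was 75.3 (95% counting interval 20.5 to 628) in resistant 1 and 141 (38.7 to 1171) in resistant 2. The log2 difference between the resistant replicates (2 minus 1) was 0.78 ± 0.40 (adjusted p = 0.176), and it passed the test without resistant 2 replicate 2 (1.08, adjusted p = 0.0419).

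**Figure D3:**
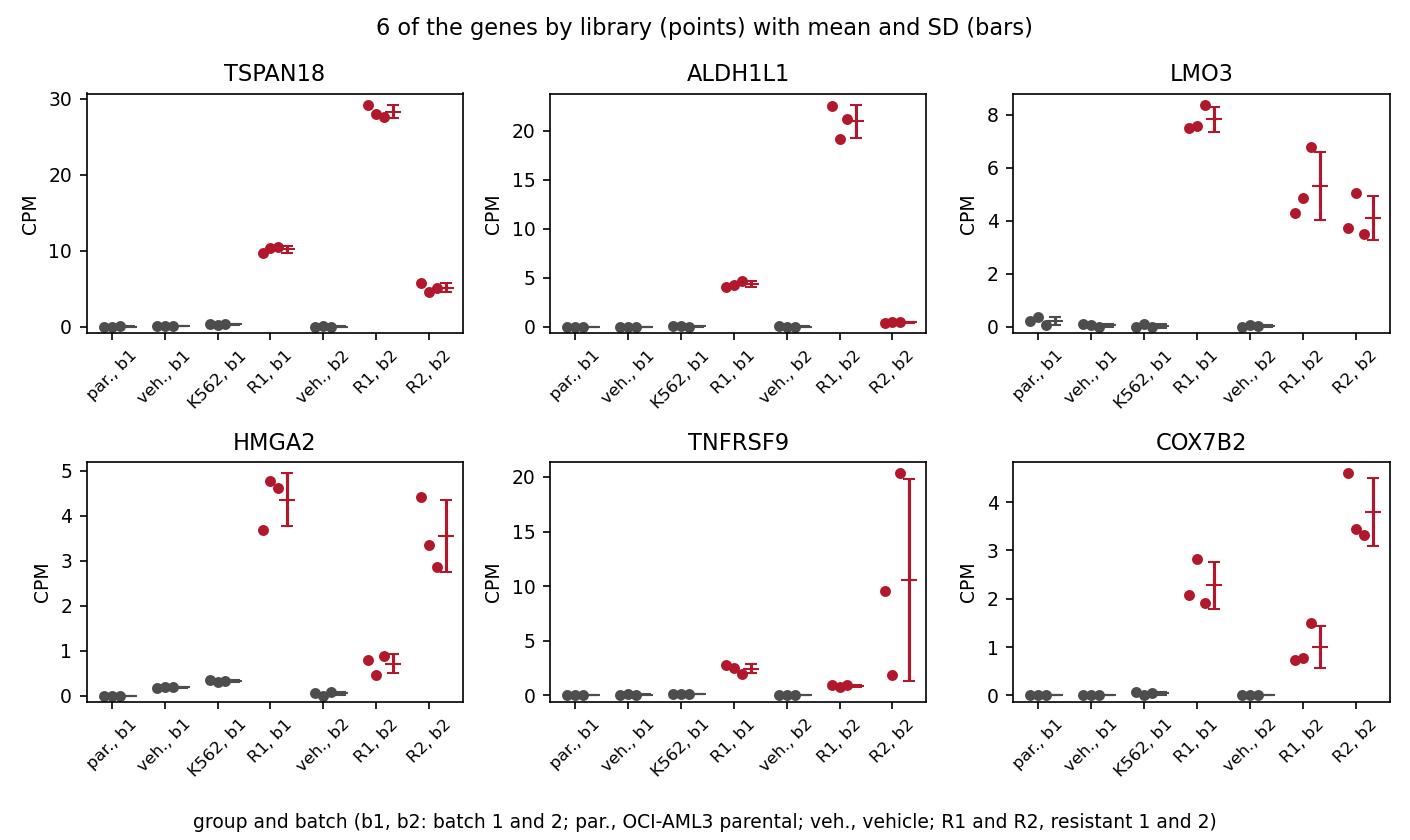
CPM of 6 genes in each library (points) with the group mean and SD (bars, n = 3) on linear axes that start near 0 and differ between panels. TSPAN18 and ALDH1L1 peak in resistant 1 of batch 2, TNFRSF9 and COX7B2 peak in resistant 2, and the resistant 2 libraries of TNFRSF9 run from 1.91 to 20.3 CPM.

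The enzymes ranged from folate metabolism to cyclic nucleotide breakdown, and ALDH1L1 showed the sharpest split between the resistant replicates. ALDH1L1, the 10-formyltetrahydrofolate dehydrogenase of cytosolic folate metabolism and a marker of astrocytes and liver, lies on chromosome 3 from 126103562 to 126197994 (minus strand). It was at 4.08, 4.25 and 4.69 CPM in resistant 1 of batch 1 and held 1, 1 and 0 counts in the K562 libraries. In batch 2 it was at 22.6, 19.2 and 21.2 CPM in resistant 1 but at 0.366, 0.531 and 0.451 CPM in resistant 2. The resistant 1 level of batch 2 was thus well above that of batch 1, and the resistant 2 libraries lay far below both. Vehicle held 3 counts, and the count ratio was 912 (95% counting interval 312 to 4424) in resistant 1 and 19.4 (6.30 to 96.6) in resistant 2. On the log2 scale resistant 2 minus resistant 1 was -5.63 ± 0.28 (adjusted p = 2.05e-08). The antisense RNA ALDH1L1-AS2 was at 0.208, 0.359 and 0.00763 CPM in resistant 1 of batch 1, resistant 1 of batch 2 and resistant 2, and reads could be shared with it.

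PCK1, the cytosolic phosphoenolpyruvate carboxykinase that commits carbon to gluconeogenesis in liver and kidney, lies on chromosome 20 from 57561080 to 57568121 (plus strand). It was at 2.54, 1.76 and 2.70 CPM in resistant 1 of batch 1 and at 0.344, 0.245 and 0.420 CPM in K562. In batch 2 it was at 3.33, 1.38 and 3.84 CPM in resistant 1 and at 0.870, 1.11 and 0.855 CPM in resistant 2. Replicate 2 was the lowest of resistant 1 in both batches, and resistant 2 lay below all of resistant 1. Vehicle held 1 count, with count ratios of 367 (95% counting interval 65.4 to 14520) and 122 (21.5 to 4867). Between the resistant replicates the log2 fold change (2 over 1) was -1.69 ± 0.39 (adjusted p = 6.31e-03).

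LDHD, the mitochondrial D-lactate dehydrogenase, lies on chromosome 16 from 75111860 to 75116780 (minus strand). It was at 2.19, 2.77 and 1.99 CPM in resistant 1 of batch 1, at 1.61, 1.22 and 1.73 CPM in resistant 1 of batch 2 and at 0.366, 0.555 and 0.546 CPM in resistant 2. The resistant 2 libraries came close to K562, whose libraries were at 0.275, 0.245 and 0.315 CPM. LDHD was above vehicle by log2 fold changes of 4.09 ± 0.56 (adjusted p = 9.38e-06) and 2.36 ± 0.60 (adjusted p = 2.30e-03). The log2 difference between the resistant replicates (2 minus 1) was -1.73 ± 0.43 (adjusted p = 1.04e-02), a call that ended without resistant 2 replicate 1 (-1.56, adjusted p = 0.0547).

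PTGDS, the lipocalin-type prostaglandin D synthase abundant in brain, lies on chromosome 9 from 136975092 to 136981742 (plus strand). Its libraries were at 2.09, 3.23 and 2.42 CPM in resistant 1 of batch 1 and at 0.275, 0.552 and 0.420 CPM in K562. In batch 2 they were at 2.18, 2.50 and 1.99 CPM in resistant 1 and at 0.755, 0.869 and 0.973 CPM in resistant 2. The level in resistant 1 was similar in both batches, and resistant 2 lay lower without overlap. PTGDS was above vehicle by log2 fold changes of 4.46 ± 0.39 (adjusted p = 8.61e-08) and 3.01 ± 0.41 (adjusted p = 9.54e-06). On the log2 scale resistant 2 minus resistant 1 was -1.45 ± 0.29 (adjusted p = 2.85e-03).

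COX7B2, the testis-enriched paralog of a cytochrome c oxidase subunit, went the other way. It lies on chromosome 4 from 46734827 to 46909245 (minus strand). It was at 2.09, 2.83 and 1.92 CPM in resistant 1 of batch 1, at 0.726, 0.780 and 1.5 CPM in resistant 1 of batch 2 and at 4.60, 3.45 and 3.32 CPM in resistant 2. K562 held 1, 0 and 1 counts, and all 9 OCI-AML3 control libraries held 0, so COX7B2 was close to silent in both parental lines. It was at least 40.7-fold above vehicle in resistant 1 (adjusted p = 2.27e-06) and at least 164-fold above it in resistant 2 (adjusted p = 6.96e-08). Resistant 2 exceeded resistant 1 by a log2 fold change of 1.85 ± 0.34 (adjusted p = 2.19e-03).

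SULT4A1, a brain-enriched member of the cytosolic sulfotransferase family, lies on chromosome 22 from 43824509 to 43862513 (minus strand). It was at 2.68, 2.55 and 2.56 CPM in resistant 1 of batch 1, and only at 0.645, 0.468 and 0.228 CPM in resistant 1 of batch 2. Resistant 2 was at 1.10, 1.71 and 1.61 CPM, above all 3 libraries of resistant 1 in its batch. K562 held 2, 1 and 3 counts and all OCI-AML3 control libraries 0. SULT4A1 was at least 20.7-fold above vehicle in resistant 1 (adjusted p = 3.61e-05) and at least 63.5-fold in resistant 2 (adjusted p = 1.39e-06). Between the resistant replicates the log2 fold change (2 over 1) was 1.58 ± 0.41 (adjusted p = 1.51e-02), a call that ended without resistant 1 replicate 3 (1.31, adjusted p = 0.0644) or resistant 2 replicate 3 (1.54, 0.0582).

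PDE2A, the cGMP-stimulated phosphodiesterase, lies on chromosome 11 from 72576141 to 72674591 (minus strand), and was at 2.09, 2.49 and 2.20 CPM in resistant 1 of batch 1. In batch 2 it was at 0.504, 1.43 and 0.684 CPM in resistant 1 and at 0.664, 0.845 and 0.665 CPM in resistant 2. K562 replicate 1 was at 0.756 CPM, so PDE2A was the single gene that did not stand above all K562 libraries in either resistant replicate of batch 2. It was above vehicle by log2 fold changes of 3.15 ± 0.62 (adjusted p = 3.33e-04) and 2.80 ± 0.63 (adjusted p = 9.25e-04). The log2 difference between the resistant replicates (2 minus 1) was -0.35 ± 0.48 (adjusted p = 0.642), and its sign turned without resistant 1 replicate 2 (0.19).

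PNCK, the beta isoform of calcium and calmodulin-dependent kinase I, lies on chromosome X from 153669733 to 153689010 (minus strand). It was at 2.14, 2.55 and 1.78 CPM in resistant 1 of batch 1, at 0.907, 0.598 and 0.391 CPM in resistant 1 of batch 2 and at 0.732, 1.16 and 0.760 CPM in resistant 2. K562 was at 0.550, 0.245 and 0.158 CPM. Vehicle held 3 counts, with count ratios of 29.1 (95% counting interval 9.60 to 144) and 38.0 (12.7 to 187). On the log2 scale resistant 2 minus resistant 1 was 0.36 ± 0.42 (adjusted p = 0.575). Its 5′ end overlaps SLC6A8, the creatine transporter, on the opposite strand. SLC6A8 was at 148 CPM in resistant 1 of batch 1, 121 CPM in K562 and 59.4 CPM in vehicle, and reads may be shared.

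Neural markers stood beside the brain enzymes. The 12 neural markers summed to 23.8 to 27.0 CPM in resistant 1 of batch 1, 13.97 to 14.34 CPM in K562, 34.9 to 40.6 CPM in resistant 1 of batch 2, 30.3 to 39.6 CPM in resistant 2 and 1.62 to 2.80 CPM in vehicle of batch 2. The sums came mostly from PAX6, SYP and TUBB3. Of the 12, 4 were tested in batch 2. PAX6 held 0 counts in vehicle of batch 2, so it could pass the low-count filter through the resistant libraries alone. No count of the neural markers against vehicle is therefore given. DCX, a neuroblast protein, and NEFL, a neurofilament, had 1 count or fewer in every group. Whether the brain enzymes moved with these markers was not tested.

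LMO3, a LIM-only transcriptional cofactor expressed in brain and an oncogene of neuroblastoma, lies on chromosome 12 from 16548372 to 16610594 (minus strand). Its libraries were at 7.51, 7.59 and 8.39 CPM in resistant 1 of batch 1, at 4.31, 4.86 and 6.77 CPM in resistant 1 of batch 2 and at 3.73, 5.04 and 3.51 CPM in resistant 2. K562 held 0, 2 and 0 counts, and OCI-AML3 parental 4, 6 and 1. LMO3 was above vehicle by log2 fold changes of 7.11 ± 0.50 (adjusted p = 6.50e-09) and 6.65 ± 0.51 (adjusted p = 1.61e-08). Between the resistant replicates the log2 fold change (2 over 1) was -0.47 ± 0.28 (adjusted p = 0.251), and the libraries overlapped. The gene overlaps MGST1, a microsomal glutathione transferase, on the opposite strand. MGST1 averaged 55.7 CPM in resistant 1 of batch 1, 46.3 CPM in K562 and 140 CPM in vehicle. In batch 1, resistant 1 was thus above K562 for both genes, and above vehicle for LMO3 but below it for MGST1. In batch 2 MGST1 averaged 30.0 CPM in resistant 1 and 37.5 CPM in resistant 2, below its K562 level, and 150 CPM in vehicle.

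HMGA2, a chromatin protein with AT-hook domains that is active in fetal tissue and in many tumours, lies on chromosome 12 from 65824460 to 65966291 (plus strand). It was at 3.68, 4.76 and 4.62 CPM in resistant 1 of batch 1 and at 0.344, 0.306 and 0.315 CPM in K562. In batch 2 it was at 0.786, 0.468 and 0.879 CPM in resistant 1 and at 4.42, 3.35 and 2.85 CPM in resistant 2. Resistant 2 of batch 2 therefore stood near resistant 1 of batch 1, while resistant 1 of batch 2 lay far below both. HMGA2 was above vehicle by log2 fold changes of 3.68 ± 0.58 (adjusted p = 4.51e-05) and 5.90 ± 0.53 (adjusted p = 1.02e-07). The log2 difference between the resistant replicates (2 minus 1) was 2.22 ± 0.37 (adjusted p = 6.81e-04).

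ZNF732, a zinc finger protein of a large family of near-identical paralogs, lies on chromosome 4 from 270675 to 305474 (minus strand), and reads may be shared among the family. It was at 2.04, 2.15 and 1.99 CPM in resistant 1 of batch 1, at 1.91, 1.92 and 2.12 CPM in resistant 1 of batch 2 and at 4.16, 4.56 and 5.27 CPM in resistant 2. Resistant 1 was thus at the same level in both batches, and all 3 resistant 2 libraries were higher. K562 was at 0.344, 0.368 and 0.473 CPM. ZNF732 exceeded vehicle by log2 fold changes of 3.71 ± 0.36 (adjusted p = 2.52e-07) and 4.85 ± 0.35 (adjusted p = 9.13e-09). On the log2 scale resistant 2 minus resistant 1 was 1.14 ± 0.26 (adjusted p = 5.89e-03).

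MAGEA8-AS1, a non-coding RNA named as antisense to a gene of the MAGE-A cancer-testis family, lies on chromosome X from 149878836 to 149881070 (minus strand). It was at 3.03, 2.77 and 3.20 CPM in resistant 1 of batch 1 and at 0.412, 0.123 and 0.578 CPM in K562. In batch 2 it was at 0.282, 0.338 and 0.0326 CPM in resistant 1 and at 0.664, 1.71 and 0.712 CPM in resistant 2. This was the largest drop of any member between the batches of resistant 1, into the range of K562. Vehicle held 1 count, with count ratios of 30.6 (95% counting interval 5.05 to 1249) and 132 (23.4 to 5269). In a fit of resistant 1 and vehicle alone, MAGEA8-AS1 and SULT4A1 did not pass the low-count filter. Between the resistant replicates the log2 fold change (2 over 1) was 2.07 ± 0.58 (adjusted p = 1.80e-02), a call that ended without resistant 1 replicate 3 (1.65, adjusted p = 0.0702) or resistant 2 replicate 2 (1.48, 0.0707).

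The gene MAGEA8 itself lies 70 bases from MAGEA8-AS1. It was at 9.37 CPM in resistant 1 of batch 1, 2.94 CPM in K562, 3.00 CPM in resistant 1 of batch 2 and 10.2 CPM in resistant 2, and OCI-AML3 parental and vehicle were at 0. Both transcripts were thus higher in resistant 2 than in resistant 1 of batch 2, for MAGEA8 by a log2 fold change of 1.68 ± 0.21 (adjusted p = 1.67e-04). In a list of cancer-testis antigen genes, 20 were tested in batch 2. The whole list summed to 1.63 to 3.22 CPM in vehicle of batch 2. Its genes could thus pass the low-count filter through the resistant libraries alone, and no count against vehicle is given. In sum the list was not above K562: it came to 2458 to 2479 CPM in resistant 1 of batch 1, 2521 to 2583 CPM in K562, 2179 to 2277 CPM in resistant 1 of batch 2 and 2176 to 2409 CPM in resistant 2. Between the replicates 3 were higher and 6 lower in resistant 2, beside 12.4% and 11.9% of all genes tested.

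Resistant 1 was sequenced in both batches, and the members split in how far they carried over. The level in batch 2 was at least 2-fold higher for 2 genes, ALDH1L1 (4.83-fold) and TSPAN18 (2.78-fold), within 2-fold for 7 and at least 2-fold lower for 9. Of 2252 genes with a batch 1 level in the range of the members, 6.88% were at least 2-fold higher and 24.2% at least 2-fold lower. The median ratio of batch 2 to batch 1 was 0.564 in the members and 0.787 in those genes. The lowest ratios were those of MAGEA8-AS1 (0.0725), HMGA2 (0.163) and SULT4A1 (0.172). The members were chosen for high values in batch 1, and a batch difference and a difference between cultures cannot be told apart here, so no test was made.

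**Figure D4:**
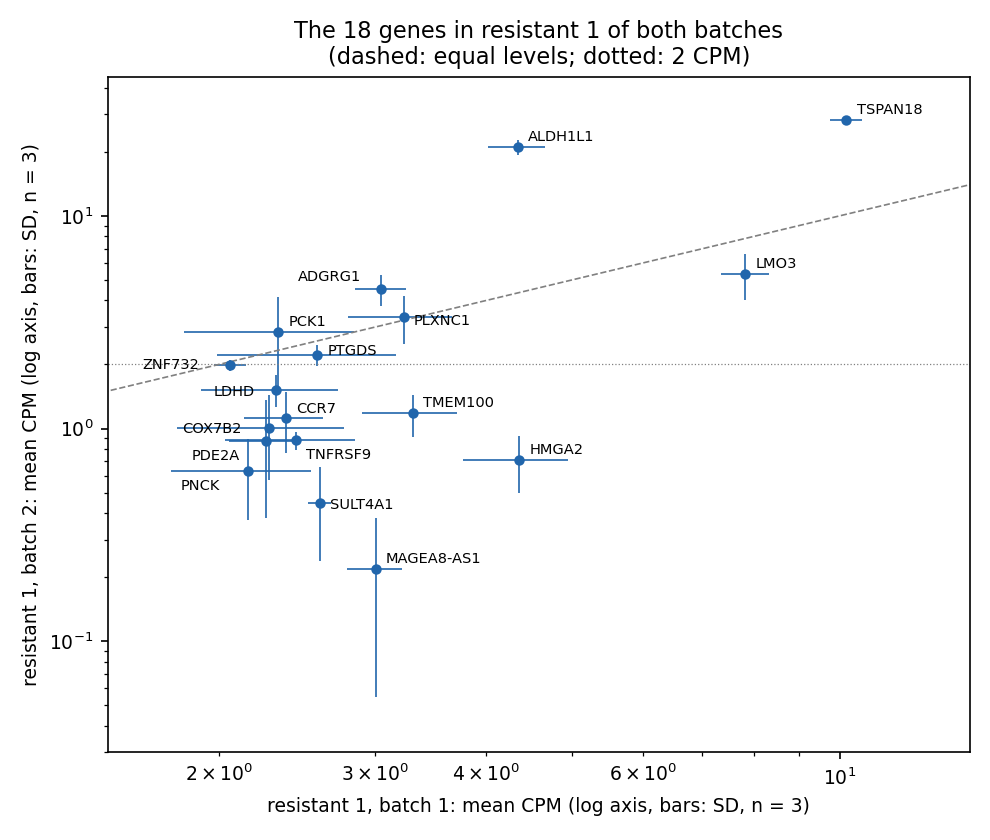
Mean CPM of the 18 genes in resistant 1 of batch 1 (horizontal) and of batch 2 (vertical), both on log axes, with SD over 3 libraries as bars. ALDH1L1 and TSPAN18 lie far above the dashed line of equal levels, and 11 genes lie below the dotted line at 2 CPM.

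Against K562 the comparison crosses batches and is given as a description. The rule chose the members as low in these same K562 libraries. The shares beside them are over genes at any K562 level and are no measure of what such a choice would give. In resistant 1 of batch 2 every library was above every K562 library for 15 of 18 genes, beside 26% of the genes with a count in batch 2, the exceptions being MAGEA8-AS1, PDE2A and PNCK. In resistant 2 it was 17 of 18, beside 28.2%, with PDE2A the exception. In batch 2, 16 of 18 genes averaged at least 0.5 CPM in resistant 1 (all but MAGEA8-AS1 and SULT4A1) and 16 of 18 in resistant 2 (all but ALDH1L1 and LDHD). Of the 13276 genes below 0.5 CPM in the 3 other groups of batch 1, 32 met the thresholds in both resistant replicates of batch 2, and 3 of these were members.

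Levels of different genes can be set side by side only per length. Per kilobase of annotated exon (union over transcripts, 476 to 15070 bases), the highest in resistant 1 of batch 1 was MAGEA8-AS1 at 6.31 CPM per kb, then COX7B2 at 2.79, TSPAN18 at 1.69 and TMEM100 at 1.14. HMGA2, the gene with the longest exon union, was the lowest at 0.289 CPM per kb. In resistant 1 of batch 2 TSPAN18 led at 4.70 CPM per kb, followed by ALDH1L1 at 1.53. In resistant 2 COX7B2 led at 4.64 CPM per kb, followed by MAGEA8-AS1 at 2.16, ZNF732 at 1.99 and TNFRSF9 at 1.67. The order of the members thus differed between the resistant replicates.

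The members were scattered over the genome. In the GENCODE annotation of hg38, 17 were protein coding and 1 a long non-coding RNA, they lay on 11 chromosomes, and 0 pairs lay within 1 Mb of each other. Within 500 kb of a member, 179 other genes were tested in batch 2, of which 21 (11.7%) were higher and 19 (10.6%) lower in resistant 2 than in resistant 1. Over all genes tested the shares were 12.4% and 11.9%, so the pooled neighbours were called about as often as other genes. The calls were uneven between members. Around MAGEA8-AS1, itself higher in resistant 2, 4 of 4 were higher. Around TSPAN18, itself lower, 4 of 6 were higher and 0 lower. Around CCR7, not called itself, 8 of 18 were lower and 1 higher. PTGDS alone gave 43 of the 179 genes, with 2 higher and 1 lower. Around LMO3, PCK1 and COX7B2 no neighbour was called. Clustering of calls around single members was not tested.

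The promoters of 3 genes are shown because their genes mark the patterns above: ALDH1L1 had the largest difference between the resistant replicates, COX7B2 was higher in resistant 2, and LMO3 met the thresholds in both. Each is the 250 bases before a RefSeq start (GRCh38.p14), written 5′ to 3′ on the strand of the gene and with no annotated exon in it. The windows are chr3:126181187-126181436 for ALDH1L1 (minus strand, inside the span of the gene), chr4:46909246-46909495 for COX7B2 (minus strand) and chr12:16608215-16608464 for LMO3 (minus strand, inside the span of the gene). Capitals mark a match to GATAA or to CCAAT on either strand.
ALDH1L1: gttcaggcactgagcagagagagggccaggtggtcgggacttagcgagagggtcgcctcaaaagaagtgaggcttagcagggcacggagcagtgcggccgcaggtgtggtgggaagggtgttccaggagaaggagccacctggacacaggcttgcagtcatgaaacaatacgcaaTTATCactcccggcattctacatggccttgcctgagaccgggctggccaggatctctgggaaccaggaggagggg
COX7B2: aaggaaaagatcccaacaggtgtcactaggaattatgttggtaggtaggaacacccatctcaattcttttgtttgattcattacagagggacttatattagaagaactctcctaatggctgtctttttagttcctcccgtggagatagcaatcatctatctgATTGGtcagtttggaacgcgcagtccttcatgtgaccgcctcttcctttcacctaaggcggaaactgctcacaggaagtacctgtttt
LMO3: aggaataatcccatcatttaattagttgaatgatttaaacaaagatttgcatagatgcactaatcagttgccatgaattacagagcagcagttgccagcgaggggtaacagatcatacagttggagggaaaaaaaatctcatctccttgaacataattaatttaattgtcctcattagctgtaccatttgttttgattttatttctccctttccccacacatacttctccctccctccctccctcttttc

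Of the 18 members, 9 had windows in the RefSeq table, 21 in all, since a gene can have several starts. The sequence GATAA, the core that GATA factors of erythroid cells bind, was found on either strand in 3 of 21 member windows and in 20.4% of all 35116 windows. CCAAT was found in 3 of 21 and in 32%, TATAAA in 1 of 21 and in 10.7%, and GGGCGG in 10 of 21 and in 42.6%. Matches to different motifs can share letters at their ends, and several member windows belong to 1 gene and overlap. Of the windows printed, that of ALDH1L1 held 1 match to GATAA (as TTATC), that of COX7B2 held 1 match to CCAAT (as ATTGG) and that of LMO3 held none of the 4. ALDH1L1 and LMO3 also have windows at other starts that are not printed. Those of ALDH1L1 held TATAAA and GGGCGG, and some of LMO3 held GGGCGG or CCAAT. The median number of CpG dinucleotides was 8 in member windows and 11 over all windows.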

How the data were processed

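The 21 libraries, from 7 groups of 3, are of messenger RNA and were made with a strand-specific kit. The authors deposited raw counts for 28008 gene symbols in a table for each batch; all values were whole numbers and 0 columns had no sample. The submitters' processing notes name hg38 as the build and DESeq2 1.22.1. Aligner version, annotation and use of strand were not given in the sources used here.

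Levels are CPM on column totals. Counts of batch 2 were fitted with edgeR 4.0.16 in R 4.3.3 (TMM, filterByExpr, robust quasi-likelihood, two-sided F tests, Benjamini-Hochberg adjustment over 15218 genes, called under 0.05), with the 3 groups sharing 1 estimate of the spread. Folds against 0 counts use 3 counts over the group's libraries, and intervals for low counts are exact 95% binomial intervals that cover counting error only. The members and all lists were chosen with earlier results of these data known. Values by library are given for the members with the highest batch 1 levels, the greatest changes, the lowest batch 2 levels and those at the thresholds, which took in the whole set. GENCODE v44 matched 24575 symbols, including all 18 members, and motifs were searched as exact letters.

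Library numbers carried over in part between groups of batch 2. Deviations from the group means of same-numbered libraries correlated at 0.217, 0.274 and 0.222 between vehicle and resistant 1, at 0.098, 0.216 and 0.161 between vehicle and resistant 2, and at 0.315, 0.394 and 0.167 between the resistant replicates, over 10454 genes. Pairs with other numbers ran from -0.437 to 0.331, the highest being resistant 1 replicate 1 with resistant 2 replicate 3. The labels give no reason for the shared deviations. Alternatives were DESeq2 1.42.0, its size factors, no filter, the replicate block, 2-group fits, other thresholds and leaving out each library.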

Additional observations from a re-analysis of the deposited data

Results flagged for a closer look

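The difference between the resistant replicates, which equals the difference between their contrasts with vehicle, passed edgeR's test in 12 of the 18 genes, with 3 libraries per group. Of all genes tested, 24.4% passed. Without the filter, 11 of the 18 passed, beside 17.3% of the genes with a count. No share of all genes was taken for the separation of single libraries given next. Resistant 2 was lower in all 3 libraries than every resistant 1 library of batch 2 for ALDH1L1 (log2 difference -5.63), TSPAN18 (-2.55), LDHD (-1.73), PCK1 (-1.69), PTGDS (-1.45) and ADGRG1 (-0.96). It was higher in all 3 libraries for TNFRSF9 (3.48), HMGA2 (2.22), MAGEA8-AS1 (2.07), COX7B2 (1.85), SULT4A1 (1.58) and ZNF732 (1.14). For TNFRSF9, 1 of the 3 resistant 2 libraries was far below the other two. The calls of ADGRG1, LDHD, MAGEA8-AS1, SULT4A1 and TNFRSF9 each ended when some single library was left out. That of TNFRSF9 also ended without the filter.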

How the results depend on the processing

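The number of members rests on the thresholds. It was 108 at 1 CPM in resistant 1, 2 at 5 CPM, 5 with a ceiling of 0.25 CPM, 77 with a ceiling of 1 CPM, 7 when every library had to meet the thresholds, 17 with TMM-scaled sizes (without ZNF732) and 18 to 23 without 1 library of batch 1. With TMM-scaled sizes 6 and 7 members met the thresholds in resistant 1 and resistant 2 of batch 2. Between the resistant replicates, genes called higher ranged from 1117 to 2505 and lower from 1206 to 2309 without 1 library of batch 2, the fewest without resistant 1 replicate 3. Without 1 library at a time, the log2 difference of the resistant replicates ran from -0.327 to 0.014 for PLXNC1 and from -0.646 to 0.193 for PDE2A, both changing sign without resistant 1 replicate 2 and neither called. With the replicate block, 6247 genes were higher and 5611 lower in resistant 1 than in vehicle, 6271 and 5668 in resistant 2, and 2282 and 2261 between the resistant replicates; it changed no call of a member. Of 754 values of single members under the alternatives, 739 kept their direction and their side of the threshold, and 12 lost a call, 1 gained a call and 2 changed sign; the cause was not tested, beyond the fewer libraries of most. With no filter the median log2 fold change of all genes against vehicle was 0.11 in resistant 1 and 0.14 in resistant 2. With the filter it was 0.07 in each. Low counts limit the precision: in vehicle of batch 2 the members PCK1 and MAGEA8-AS1 rest on 1 count and 5 others on 0.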
